A study of Mus musculus with 12 samples.

Results

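The effect of adding a Tet2 mutant allele to marrow that already carried a Dnmt3a and a Flt3 mutation was examined by comparing TFD with DF libraries. DF mice were Dnmt3aFlox/+:MxCre with Flt3 ITD/+, and TFD mice were Tet2+/- with Flt3 ITD/+ and Dnmt3aFlox/+; MxCre, all on C57BL/6. The comparison rests on 5 of the 11 libraries analysed, 3 DF and 2 TFD, which were chosen by genotype label. The other 6 libraries, 3 WT and 3 TF (Tet2+/- with Flt3 ITD/+), are given beside them for reference. Every mouse, WT included, received poly(I:C) at 8 to 10 weeks of age and was analysed 8 to 9 weeks later. Poly(I:C) induces interferon, which switches on the MxCre transgene and so deletes the floxed Dnmt3a copy in interferon-responsive cells. The Tet2 and Flt3 alleles were instead present in all cells from the germline. DF and TFD therefore shared the transgene, the floxed allele, the Flt3 ITD/+ allele and the injection, and differed by label in Tet2 only. RNA came from whole bone marrow mononuclear cells and was depleted of globin mRNA. In such bulk samples fewer cells of a type and less RNA per cell cannot be told apart. No label states that replicates were separate mice, and p values measure the spread between the libraries. No group with the MxCre transgene alone or the Flt3 ITD/+ allele alone was analysed here, and neither was TFD replicate 3.

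Tet2 oxidizes 5-methylcytosine and opens a route to its removal from DNA, whereas Dnmt3a places methyl groups on unmethylated CpG sites. Flt3 is the receptor tyrosine kinase of early hematopoietic progenitors and of dendritic cell precursors, and an internal tandem duplication (ITD) makes it signal without its ligand. Mutations of these 3 genes are found together in acute myeloid leukemia, in which immature myeloid cells crowd the marrow and normal blood formation declines.

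Library totals over the 12199 genes of the table were 13003863, 15900904 and 10937204 reads in DF and 15496378 and 11115255 in TFD. The pan-leukocyte gene Ptprc (CD45) stood at 1226, 1402 and 1724 CPM in DF and 1304 and 1308 CPM in TFD. CPM here are library-size normalised read counts, scaled by the TMM method of edgeR, over the 12175 genes tested. The T cell gene Cd3e did not exceed 2.06 CPM in any of the 5 libraries. TFD replicate 2 stood apart from the other 4 libraries in sex-linked transcripts, with 42152 Xist and 4 Ddx3y reads. TFD replicate 1 and the DF libraries had between 20 and 538 Xist reads and between 1040 and 2132 Ddx3y reads. The medians of gene groups are therefore given with and without each TFD library, and the part of sex in any result was not tested beyond these fits and a fit with a term for libraries rich in Xist. In TFD replicate 1 the Y-linked genes Ddx3y, Kdm5d, Eif2s3y and Uty stood at 65, 23.9, 40.0 and 38.4 CPM. All 4 values lay below those of every DF library, whose lowest were 129, 46.8, 54.4 and 66.9 CPM. Xist itself, which coats the inactive X chromosome, stood at 42.7, 1.87 and 3.17 CPM in DF and 1.25 and 3756 CPM in TFD. The X-linked gene Kdm5c, which escapes inactivation, stood at 146, 140.0 and 143 CPM in DF and 151 and 229.8 CPM in TFD. Kdm6a stood at 100, 104 and 126 CPM in DF and 107 and 176 CPM in TFD, and Eif2s3x at 43.3, 49.6 and 46.5 CPM in DF and 40.6 and 72.9 CPM in TFD. Ddx3x stood at 762, 878 and 1072 CPM in DF and 758 and 944 CPM in TFD, with overlap. In Kdm5c, Kdm6a and Eif2s3x, TFD replicate 2 was the highest of the 5 libraries. The median of the 9 sex-linked genes was -0.09 (0.06 without TFD replicate 1 and -1.15 without TFD replicate 2).

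The targeted genes were examined first. Tet2 (mm10 chr3:133463677-133544390) had 196, 218 and 246 CPM in the DF libraries and 163 and 209 in the TFD libraries, so that the groups overlapped. Its log2 fold change in TFD versus DF was -0.24 (SE 0.18, edgeR adjusted p = 0.57), a lower mean that did not exceed the spread between libraries. The Tet2+/- libraries of TF stood at 136, 199 and 205 CPM and WT at 152, 169 and 148 CPM. Dnmt3a (mm10 chr12:3806980-3914443) had 46.4, 40.2 and 38 CPM in DF and 54.4 and 58.5 CPM in TFD, without overlap and with a log2 fold change of 0.44 (SE 0.23, edgeR adjusted p = 0.403). Counts over the whole gene do not measure the loss of an allele by themselves, since reads outside the deleted part are still counted. Flt3 (mm10 chr5:147330742-147400489) stood at 59.2, 47.9 and 33 CPM in DF and 58.9 and 130.4 CPM in TFD. TFD replicate 1 lay within the DF range and TFD replicate 2 above the other 4 libraries. TF stood at 65.4, 55.4 and 71.3 CPM and WT at 30.1, 22.5 and 20.8 CPM. DESeq2 gave an adjusted p of 0.0279 for Flt3, which became 1.0, with a log2 fold change of 0.36, without TFD replicate 2, and edgeR gave 0.166.

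No gene passed an adjusted p of 0.05 in the quasi-likelihood test of edgeR, which called 0% of the 12175 genes. The smallest adjusted p was 0.0829, and 30 genes lay under 0.1. At an unadjusted p under 0.05 there were 1727 genes, or 14.2% of those tested. DESeq2 called 258 genes, of which 155 were higher in TFD (1.27% of all genes) and 103 lower (0.846%). The number of calls changed widely when single libraries were left out, which also leaves less replication. DESeq2 called 920 genes without TFD replicate 1 and 42 without TFD replicate 2. Without DF replicates 1, 2 and 3 it called 175, 84 and 129 genes, and with a term for Xist-rich libraries 124. Of the 258 genes 31 were called again without TFD replicate 2 and 182 without TFD replicate 1. The edgeR test, which called none with all libraries, called 384 genes without TFD replicate 1 and 13 without TFD replicate 2. As a description that needs no model, both TFD libraries lay above all 3 DF libraries in 1720 genes (14.1%) and below them in 1823 genes (15.0%). These 3543 genes were set apart with TMM factors, and 48.5% of them were higher. With library totals 3840 genes did not overlap, 77.2% of them higher, and with DESeq2 size factors 3514 genes, 56.7% of them higher. Gene groups are described below by the same counts and by their median log2 fold change, beside a median of -0.01 over all genes. Of the 57 genes whose values are given below and that DESeq2 called, 43 were also called without TFD replicate 1 and 12 without TFD replicate 2. The latter were Apol11b, Apol8, Btnl10, Dmtn, Hp, Ifitm6, Irg1, Pf4, Plscr1, Ppbp, Slc28a2 and Vwf. Where one library of a genotype is left, it is assumed to vary like the other groups. With the term for Xist-rich libraries, DESeq2 called 5 of the heme and red cell genes (against 11 without it), 6 of the late neutrophil genes (against 8) and 6 of the interferon stimulated genes (against 8). It also called 1 of the dendritic cell genes (against 3), 1 of the tissue macrophage genes (against 3), 0 of the MHC class II genes (against 1) and 0 of the stem and progenitor cell genes (against 1). The plot of all genes shows where the main groups lay.

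**Figure D1:**
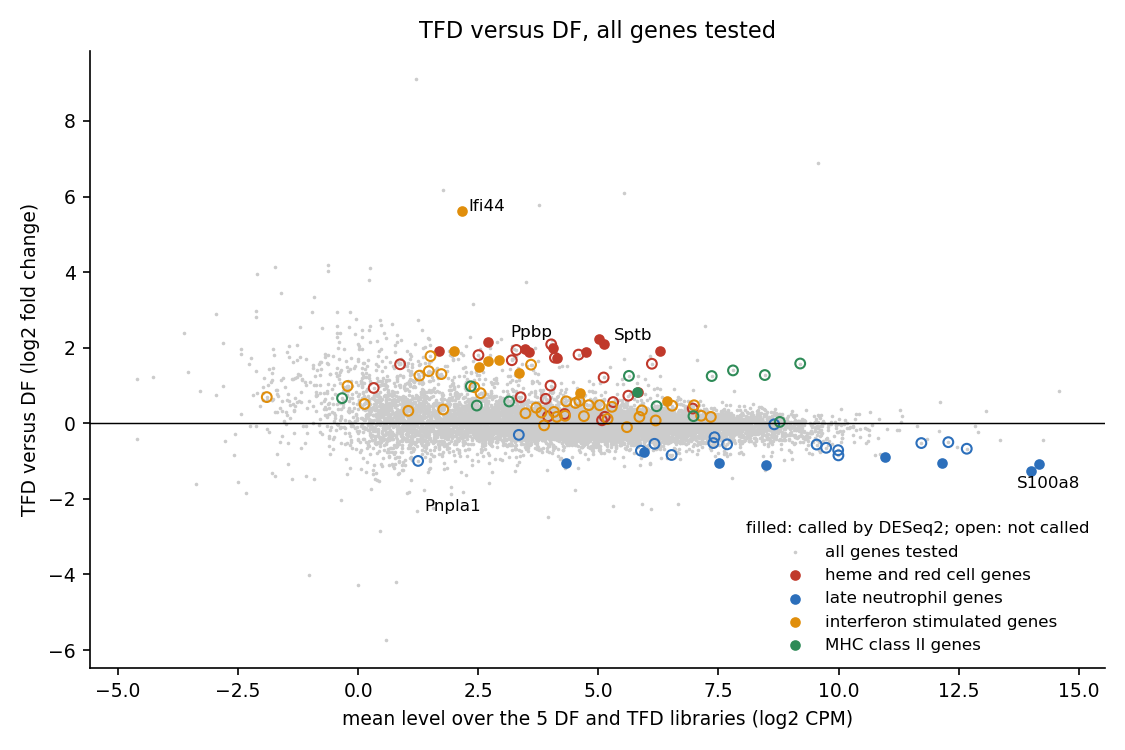
Log2 fold change of TFD versus DF against the mean level over the 5 libraries (log2 CPM) for the 12175 genes tested. Filled symbols were called by DESeq2 at an adjusted p under 0.05 and open symbols were not. All 31 heme and red cell genes lie above 0 and all 24 late neutrophil genes below 0.

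Genes of red cell production stood higher in TFD than in DF. With both TFD libraries they had the highest median of the 27 gene lists. Without TFD replicate 1 the dendritic cell median was higher (1.36 against 1.18). Red cell precursors switch on the enzymes of heme synthesis, the spectrin skeleton and the surface proteins of the red cell in sequence under Gata1 and Klf1. Of the 31 heme and red cell genes tested, both TFD libraries were above all DF libraries in 27, against 14.1% of all genes, and below them in 0. All 31 had a positive log2 fold change. Their median was 1.67, against -0.01 for all genes. DESeq2 called 11 of them higher, against 1.27% of all genes, and none lower, and edgeR called none. Among them were Alas2, Slc25a37, Slc4a1, Sptb, Ank1, Kel, Trim10 and Hemgn. Without TFD replicate 1 the median was 1.18, and without TFD replicate 2 it was 2.07. Without DF replicates 1, 2 and 3, DESeq2 called 3, 3 and 4 members. Those fits called 175, 84 and 129 of the 12175 genes tested.

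Sptb (beta spectrin), of the skeleton under the red cell membrane, stood at 12.7, 14.7 and 17.5 CPM in DF and 72.5 and 56.4 CPM in TFD, a 4.32-fold difference (log2 2.11, SE 0.42, edgeR adjusted p = 0.0993, DESeq2 adjusted p = 0.00934). The lowest TFD library was more than 3 times the highest DF library. Slc4a1, the band 3 anion exchanger, had 25.7, 39.7 and 44.8 CPM in DF and 182 and 96.8 CPM in TFD (log2 1.93, SE 0.41, DESeq2 adjusted p = 0.0222). Dmtn, the actin-bundling protein dematin of the same skeleton, had 2.86, 3.35 and 3.17 CPM in DF and 16.6 and 11.4 CPM in TFD (log2 2.17, SE 0.43, DESeq2 adjusted p = 1.23e-04). Epb4.2 (protein 4.2), named here after its values were seen, had 2.7, 4.57 and 5.05 CPM in DF and 21.3 and 12.5 CPM in TFD (DESeq2 adjusted p = 0.0296). In these 4 skeleton and anchor genes both TFD libraries lay above all DF libraries. Trim10, which is needed for terminal red cell differentiation, stood at 2.46, 2.19 and 3.66 CPM in DF and 13.6 and 10.4 CPM in TFD (log2 2.15, SE 0.45, DESeq2 adjusted p = 1.70e-04).

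Among 7 enzymes of heme synthesis, 5 had both TFD libraries above all DF libraries. Alas2, the erythroid enzyme that starts the pathway and whose gene lies on chromosome X, had 6.51, 10.2 and 10.8 CPM in DF and 39.7 and 20.8 CPM in TFD. This was 3.33-fold higher (log2 1.74, SE 0.40, edgeR adjusted p = 0.11, DESeq2 adjusted p = 0.0308). Along the pathway, the log2 fold change was 1.0 for Alad, 0.69 for Uros, 0.17 for Urod, 1.21 for Cpox, 0.08 for Ppox and 0.56 for Fech. The groups overlapped in Urod and Ppox. Only Alas2 of the 7 passed the DESeq2 test and none passed the edgeR test. Among the regulators, Gata1, also X-linked, had 1.75, 2.06 and 3.07 CPM in DF and 9.76 and 5.97 CPM in TFD. Klf1 had 3.25, 3.15 and 2.57 CPM in DF and 12.6 and 7.22 CPM in TFD. Epor, the erythropoietin receptor, stood at 0.873, 0.837 and 1.29 CPM in DF and 4.19 and 4.19 CPM in TFD (log2 2.09, SE 0.59, DESeq2 adjusted p = 0.00993). It was the only gene of the 15 erythroid transcription factors and receptors that DESeq2 called, beside 1.27% of all genes called higher. Of the 15, 8 lay above all DF libraries and 1 lay below them (14.1% and 15.0% of all genes). The list median was 0.62 (0.33 without TFD replicate 1 and 0.40 without TFD replicate 2). Without TFD replicate 2 the log2 fold change of Epor was 2.12. Sox6, a regulator of red cell maturation, had 3.89, 4.76 and 6.24 CPM in DF and 19.8 and 12.6 CPM in TFD. Bcl11a, which represses fetal globin genes and is also a lymphoid and dendritic cell factor, had 38.3, 31.1 and 27.7 CPM in DF and 42 and 69 CPM in TFD. The groups did not overlap in Gata1, Klf1, Sox6 or Bcl11a, but none of the 4 passed either test.

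The promoters of Trim10 and Alas2 are printed because both genes were called higher in the red cell group and because their windows hold letters that Gata1 can recognize. Each is the 250 bases before the start site on the gene's own strand, from RefSeq on GRCm38.p6, the assembly of mm10, with matches to AGATAA on either strand in capitals.
Trim10 (chr17:36869324-36869573, plus strand): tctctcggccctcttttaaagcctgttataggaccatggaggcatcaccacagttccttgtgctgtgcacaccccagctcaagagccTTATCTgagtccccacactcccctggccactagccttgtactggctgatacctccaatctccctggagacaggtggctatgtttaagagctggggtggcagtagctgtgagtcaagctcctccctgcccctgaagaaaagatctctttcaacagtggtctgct
Alas2 (chrX:150547167-150547416, plus strand): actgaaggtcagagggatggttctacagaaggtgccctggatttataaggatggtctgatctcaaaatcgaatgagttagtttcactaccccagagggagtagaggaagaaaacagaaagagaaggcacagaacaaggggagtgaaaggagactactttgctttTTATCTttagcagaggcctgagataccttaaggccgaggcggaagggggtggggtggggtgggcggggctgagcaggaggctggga
Among the 31 genes tested, 18 had a promoter in the RefSeq table, and 6 of these (33.3%) held AGATAA or its reverse complement in at least one such window. Among all 27025 genes with a promoter, 11.4% did. Among the eosinophil, basophil and mast cell genes, whose median log2 fold change was -0.27, 6 of 15 promoters (40.0%) held these letters. A match describes the sequence and does not show binding.

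The red cell difference was placed against the other genotypes. The median of the 31 genes, as log2 of CPM plus 0.5 relative to the DF mean, was 1.90 and 1.12 in the TFD libraries. It was 1.41, 1.90 and 3.14 in TF and 2.78, 2.91 and 3.16 in WT, with the DF libraries at -0.14, 0.02 and 0.03. By this median the DF libraries were the lowest of the 11. TFD replicate 1 lay within the TF range, TFD replicate 2 below it, and both lay below every WT library. Sptb was likewise lowest in DF and highest in WT, with WT at 209, 193 and 246 CPM and TF at 47, 73.5 and 186 CPM.

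**Figure D2:**
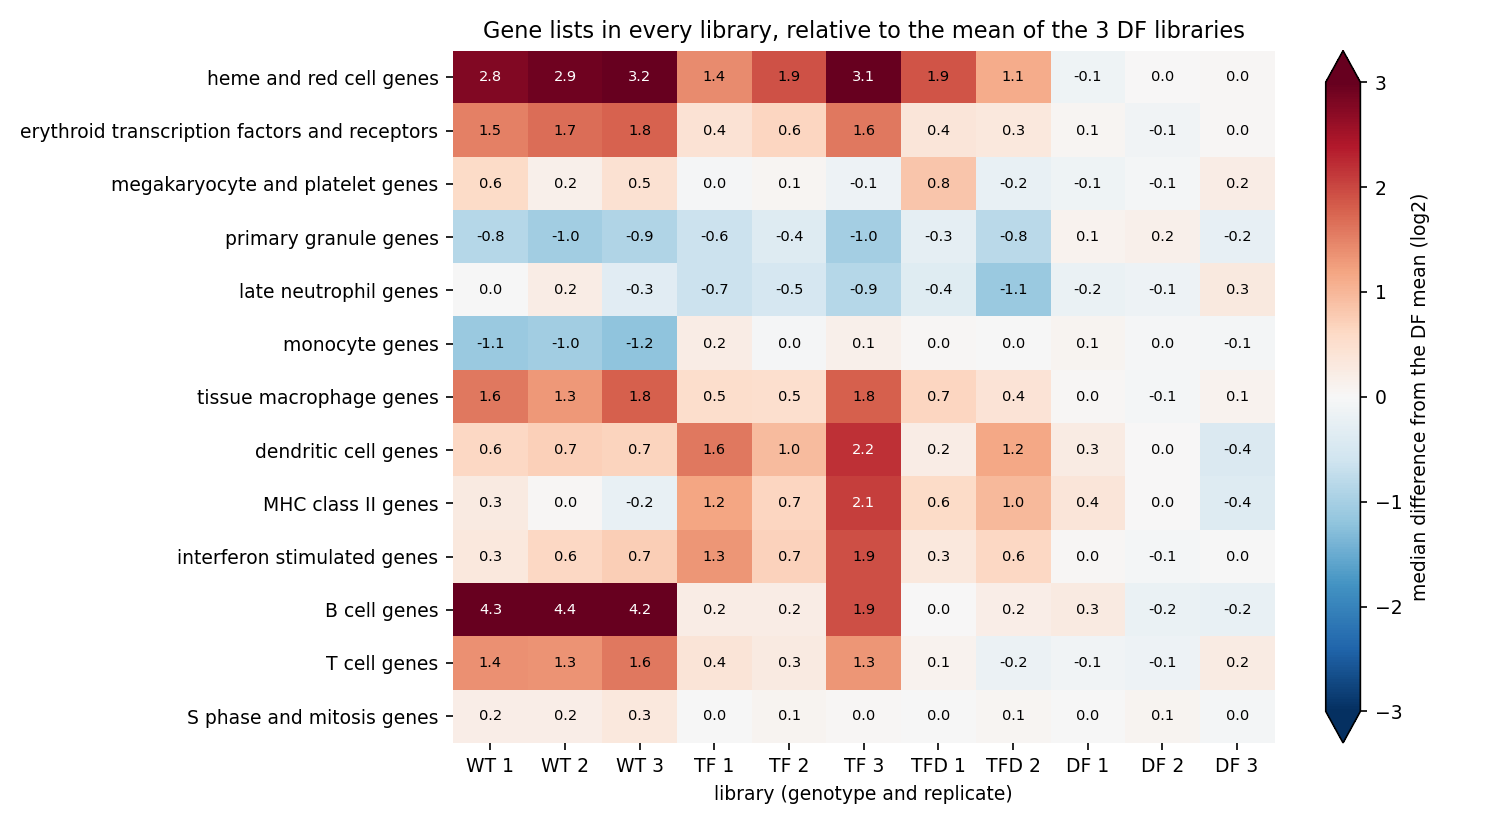
Median over the tested members of each list of the log2 difference from the DF mean, for each of the 11 libraries; columns are libraries, colour and printed number give the median in log2 units. The heme and red cell genes stand at 1.9 and 1.1 in the TFD libraries and between -0.1 and 0.0 in the DF libraries.

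Platelet genes differed between the TFD libraries themselves. Of the 27 megakaryocyte and platelet genes, 7 lay above all DF libraries in both TFD libraries and 4 below (14.1% and 15.0% of all genes), and DESeq2 called 4 higher and 1 lower (1.27% and 0.846% of all genes). The list median of 0.52 turned to -0.24 without TFD replicate 1 and was 1.04 without TFD replicate 2, so its direction rested on TFD replicate 1. DESeq2 called 2, 2 and 3 members without DF replicates 1, 2 and 3, against 175, 84 and 129 of all 12175 genes. Ppbp, a chemokine stored in platelet granules, stood at 1.83, 3.99 and 3.76 CPM in DF and 24.6 and 4.99 CPM in TFD (log2 2.23, SE 0.54, DESeq2 adjusted p = 0.00718, but 0.541 without TFD replicate 1). Pf4 (platelet factor 4) had 6.27, 7.08 and 7.52 CPM in DF and 32.5 and 7.75 CPM in TFD, with TFD replicate 1 high and TFD replicate 2 just above the DF libraries (DESeq2 adjusted p = 0.0207, 0.83 without TFD replicate 1). Vwf, the von Willebrand factor of platelets and vessels, had 9.76, 10.6 and 11.6 CPM in DF and 40.6 and 18.3 CPM in TFD. Its log2 fold change of 1.48 (SE 0.26, DESeq2 adjusted p = 1.23e-04) was called with either TFD library left out (adjusted p = 0.0253 and 6.04e-14). Gp1ba, a chain of the platelet receptor for that factor, had 0.476, 0.451 and 0.099 CPM in DF and 2.31 and 1.43 CPM in TFD (log2 2.36, DESeq2 adjusted p = 0.0393). Both TFD libraries lay above the DF range in this low gene. Itga2b (CD41) had 24, 21.4 and 28.2 CPM in DF and 52.7 and 19.3 CPM in TFD, and only TFD replicate 1 was above the DF range. The one gene of the list called lower, P2ry12, is an ADP receptor of platelets that microglia and other macrophages also carry. It had 3.81, 2.83 and 1.88 CPM in DF and 1.0 and 0.535 CPM in TFD (log2 -1.84, SE 0.46, DESeq2 adjusted p = 0.0321).

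Genes of maturing neutrophils stood lower in TFD than in DF. Neutrophil precursors make primary granule proteins at the promyelocyte stage, then secondary and tertiary granule proteins, chemotactic receptors and the S100a8 and S100a9 pair. Of the 24 late neutrophil genes tested, both TFD libraries were below all DF libraries in 15 and above in 0, beside 15.0% and 14.1% of all genes. All 24 had a negative log2 fold change with a median of -0.72. DESeq2 called 8 of them lower, namely S100a8, S100a9, Lcn2, Chil3, Itgb2l, Fpr2, Mmp25 and Cxcl2, against 0.846% of all genes. TFD replicate 2 was the lower of the TFD pair in this list. The median was -1.12 without TFD replicate 1 and -0.34 without TFD replicate 2. DESeq2 called 10, 7 and 5 members without DF replicates 1, 2 and 3, against 175, 84 and 129 of all 12175 genes.

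S100a8, an alarmin subunit that makes up much of the neutrophil cytosol, had 18378, 19674 and 26316 CPM in DF and 12815 and 5199 CPM in TFD, a 2.38-fold lower level (log2 -1.25, SE 0.32, edgeR adjusted p = 0.138, DESeq2 adjusted p = 0.00187). Its call was lost without TFD replicate 2 (adjusted p = 0.112, log2 -0.71). Chil3, a chitinase-like protein of neutrophils and macrophages, had 6087, 5625 and 5589.8 CPM in DF and 3342 and 2261 CPM in TFD (log2 -1.04, SE 0.22, DESeq2 adjusted p = 1.70e-04). Fpr2, a receptor for formylated bacterial peptides, had 200.2, 239.7 and 252 CPM in DF and 135 and 87.2 CPM in TFD, 2.07-fold lower (DESeq2 adjusted p = 0.00164). The membrane protease gene Mmp25 had 67.2, 68.2 and 85.3 CPM in DF and 51.4 and 35.3 CPM in TFD (DESeq2 adjusted p = 0.021). Cxcl2, a chemokine that draws neutrophils, had 28.5, 21.8 and 25.6 CPM in DF and 11.8 and 12.5 CPM in TFD (log2 -1.06, SE 0.22, DESeq2 adjusted p = 0.00269). In these 5 genes the groups did not overlap. Ltf and Camp encode the secondary granule proteins lactoferrin and cathelicidin. Ltf stood at 6382, 6796 and 9780.1 CPM in DF and 5998 and 3604 CPM in TFD (log2 -0.67, SE 0.28, edgeR adjusted p = 0.305). Camp stood at 3525, 3442 and 4580.2 CPM in DF and 3603 and 1757 CPM in TFD, and TFD replicate 1 lay within the DF range.

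Primary granule genes, which are used earlier, had a median closer to that of all genes. Of 11 tested, 4 lay below all DF libraries and 0 above (15.0% and 14.1% of all genes), with a median of -0.49 (-0.80 without TFD replicate 1 and -0.24 without TFD replicate 2). Mpo (myeloperoxidase) was at 3460.4, 3475 and 2722 CPM in DF and 3702 and 2412 CPM in TFD and overlapped. Elane (neutrophil elastase) was at 718, 759 and 615 CPM in DF and 508 and 542 CPM in TFD (log2 -0.41, SE 0.17, edgeR adjusted p = 0.31). Serpinb1a, an inhibitor of those proteases, was the only member that DESeq2 called, beside 0.846% of all genes called lower. It stood at 450.1, 505 and 443 CPM in DF and 332 and 219 CPM in TFD (log2 -0.76, SE 0.19, DESeq2 adjusted p = 0.0118). Without TFD replicate 2 its log2 fold change was -0.46. The cathepsin gene Ctsc and the ficolin gene Fcnb lay below the DF libraries, at 289.8, 288 and 226 CPM in DF and 221 and 223 CPM in TFD for Ctsc and 208, 225 and 286 CPM in DF and 208 and 155 CPM in TFD for Fcnb, with log2 fold changes of -0.27 and -0.40 (SE 0.16 and 0.58). Among the transcription factors of the lineage, Cebpe, which drives secondary granule genes, had 107, 106 and 114 CPM in DF and 84 and 38.1 CPM in TFD (log2 -0.83, SE 0.29, DESeq2 adjusted p = 0.104). Spi1 (PU.1), the master factor of myeloid cells, had 187, 178 and 189 CPM in DF and 159 and 119 CPM in TFD. Cebpb had 210.3, 162 and 164 CPM in DF and 146 and 113 CPM in TFD, and the repressor Gfi1 had 52.9, 60.5 and 54.6 CPM in DF and 50.1 and 32.5 CPM in TFD. These 4 factors lay below the DF range in both TFD libraries and did not pass either test, whereas Cebpa, at 185, 155 and 143 CPM in DF and 149 and 170.2 CPM in TFD, overlapped. Of the 18 myeloid transcription factors tested, 2 lay above and 4 below the DF libraries (14.1% and 15.0% of all genes). Their median was -0.03 (0.04 without TFD replicate 1 and 0.00 without TFD replicate 2). DESeq2 called Irf4 alone, which was higher in TFD, beside 1.27% of all genes called higher.

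**Figure D3:**
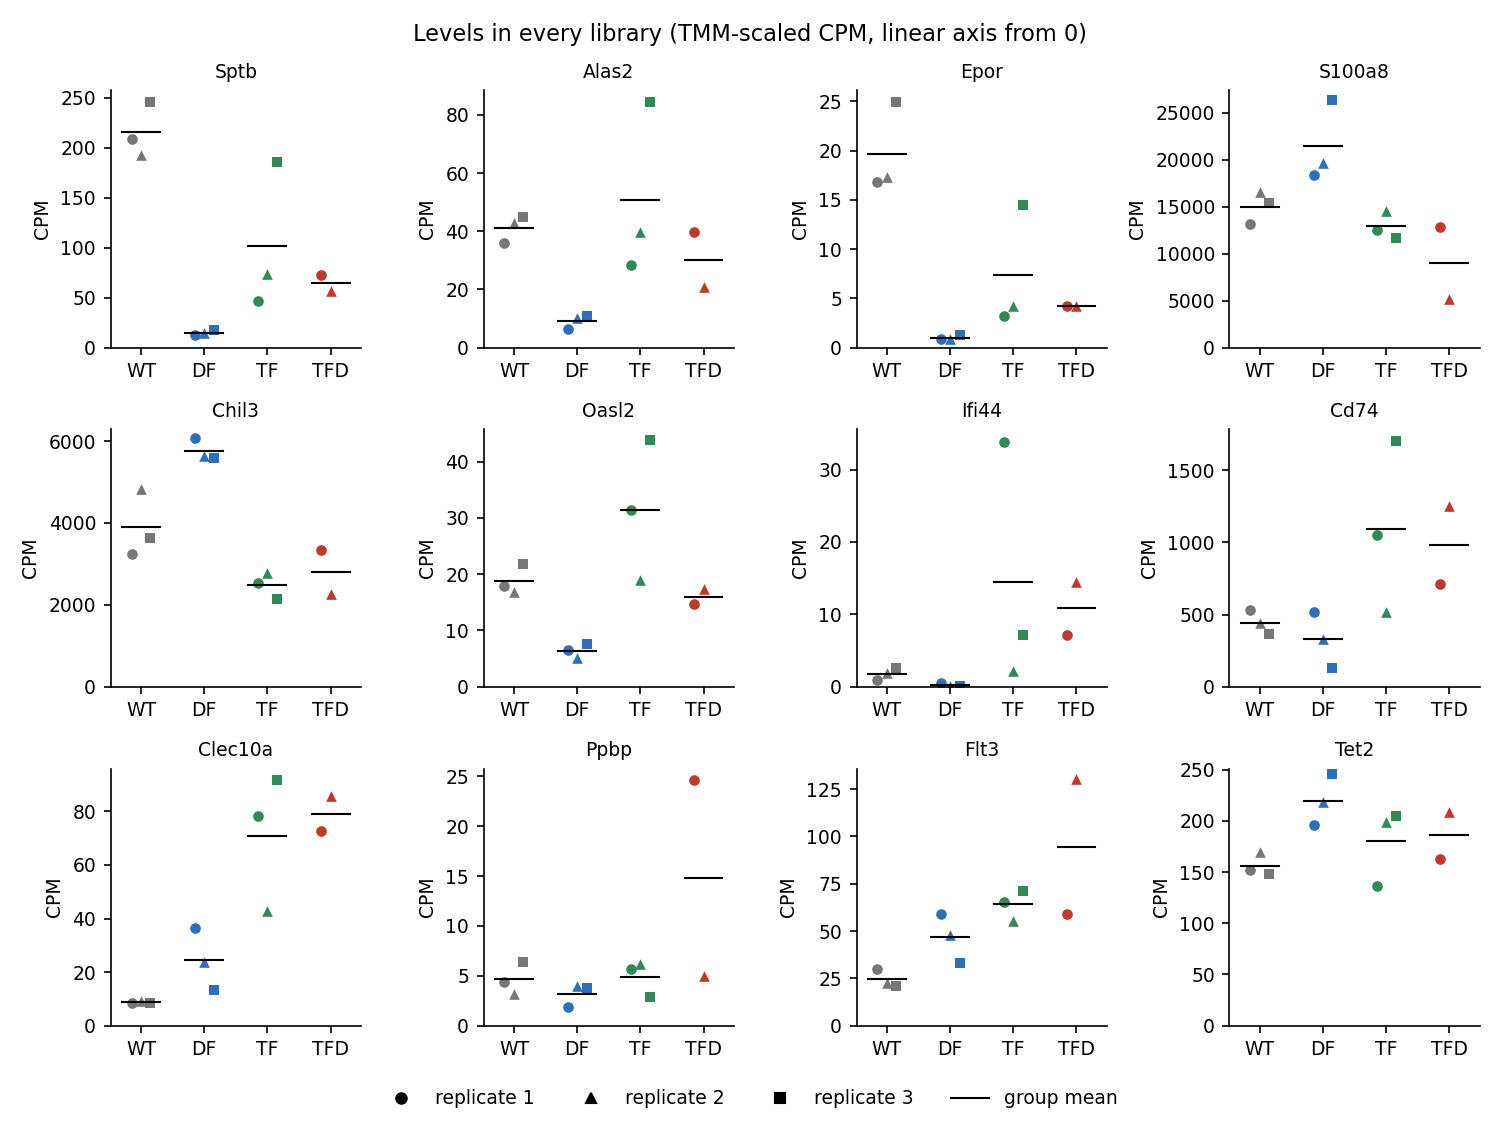
CPM of 12 genes in every library, on linear axes that start at 0; symbols mark replicate numbers, colours genotypes and bars group means. In Sptb, Epor, Chil3 and Oasl2 both TFD libraries lie outside the DF range. In Ppbp both lie above it, with TFD replicate 1 at 24.6 CPM and TFD replicate 2 at 4.99 CPM. In Flt3 only TFD replicate 2 lies above it.

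Relative to the DF mean, the late neutrophil median was -0.37 and -1.12 in TFD, -0.65, -0.51 and -0.86 in TF and -0.01, 0.22 and -0.34 in WT. TFD replicate 2 was the lowest of the 11 libraries. Summed over the 24 genes, late neutrophil transcripts made up 67634, 69751 and 92473 CPM in the DF libraries and 52392 and 27085 in the TFD libraries. Since this sum is a share of all reads, the part that its change has in the levels of other genes was not tested.

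Of 24 monocyte genes tested, 3 lay above and 3 below the DF libraries, near the 14.1% and 15.0% of all genes, DESeq2 called none and the median was -0.03 (-0.01 without TFD replicate 1 and 0.06 without TFD replicate 2). Csf1r, the receptor for macrophage colony-stimulating factor, was at 435, 360.0 and 356 CPM in DF and 424 and 499 CPM in TFD. It overlapped. Ly6c2, which marks inflammatory monocytes, was at 1012, 1072 and 979 CPM in DF and 858 and 506 CPM in TFD (log2 -0.58, SE 0.21, edgeR adjusted p = 0.253). Lyz2 (lysozyme), shared with neutrophils, was at 11987, 10648 and 12433 CPM in DF and 10491 and 6845 CPM in TFD (log2 -0.43, SE 0.22). Ms4a6c was at 639, 652 and 631 CPM in DF and 568 and 538 CPM in TFD. These 3 genes lay below the DF range in both TFD libraries. Cx3cr1, the fractalkine receptor of non-classical monocytes, lay above it, at 108, 103 and 102 CPM in DF and 137 and 116 CPM in TFD.

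Genes induced by type I interferon stood higher in TFD than in DF in most members. These genes are switched on downstream of the interferon receptor and encode antiviral proteins and their own feedback inhibitors. Of 43 tested, both TFD libraries lay above all DF libraries in 26 (14.1% of all genes did) and below in 0, and 41 had a positive log2 fold change with a median of 0.48. DESeq2 called 8 higher, namely Mx1, Mx2, Oas2, Oasl2, Usp18, Ifi44, Ifi205 and Gbp7, against 1.27% of all genes, and none lower. It called 5, 4 and 4 members without DF replicates 1, 2 and 3, against 175, 84 and 129 of all 12175 genes. The median was 0.69 without TFD replicate 1 and 0.37 without TFD replicate 2. Plscr1, an interferon-responsive gene outside this list and described below, was lower in TFD (DESeq2 adjusted p = 5.65e-05).

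Usp18, the protease that removes Isg15 from proteins and restrains the interferon receptor, had 2.3, 2 and 1.29 CPM in DF and 5.5 and 8.82 CPM in TFD (log2 1.90, SE 0.40, edgeR adjusted p = 0.108, DESeq2 adjusted p = 9.55e-04). Oasl2, a member of the oligoadenylate synthetase family, had 6.51, 5.15 and 7.62 CPM in DF and 14.6 and 17.4 CPM in TFD, 2.51-fold higher (DESeq2 adjusted p = 0.00246). Mx1 and Mx2 encode antiviral GTPases, and Mx1 had 20.7, 17.1 and 18.8 CPM in DF and 27.8 and 37.9 CPM in TFD (DESeq2 adjusted p = 0.0471). Mx2 had 4.05, 2.9 and 2.87 CPM in DF and 6.82 and 11.8 CPM in TFD (DESeq2 adjusted p = 0.0401). Rsad2 (viperin) had 5.48, 6.5 and 8.61 CPM in DF and 18.2 and 21.8 CPM in TFD and just missed the DESeq2 threshold (adjusted p = 0.0564). All 5 genes had both TFD libraries above the DF range. Ifi44 was close to absent in DF, with 6, 1 and 1 reads, and had 115 and 162 reads in TFD (DESeq2 adjusted p = 0.00165). Its levels were 33.9, 2.13 and 7.21 CPM in TF and 0.985, 1.86 and 2.6 in WT, so that TF spanned a wide range. Isg15, shown for its promoter and named after its values were seen, was at 2.3, 1.22 and 1.09 CPM in DF and 3.13 and 4.37 CPM in TFD (edgeR adjusted p = 0.354).

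Interferon-induced promoters often hold an element of GAAA, any 2 bases (NN) and GAAA again, and those of Rsad2 and Isg15 are printed with its matches on either strand in capitals, again as 250 bases of RefSeq GRCm38.p6 before the start site.
Rsad2 (chr12:26456453-26456702, minus strand): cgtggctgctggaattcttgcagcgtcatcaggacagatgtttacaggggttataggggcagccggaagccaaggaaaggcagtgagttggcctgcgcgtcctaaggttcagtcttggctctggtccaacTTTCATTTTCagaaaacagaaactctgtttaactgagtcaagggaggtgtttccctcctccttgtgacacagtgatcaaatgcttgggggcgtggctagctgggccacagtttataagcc
Isg15 (chr4:156200819-156201068, minus strand): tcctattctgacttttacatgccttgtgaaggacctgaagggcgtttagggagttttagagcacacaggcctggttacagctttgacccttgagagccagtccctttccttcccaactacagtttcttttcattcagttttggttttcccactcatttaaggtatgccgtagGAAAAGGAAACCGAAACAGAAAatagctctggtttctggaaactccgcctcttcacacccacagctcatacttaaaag
In Isg15 there were 3 matches, which overlap one another. Of the 31 interferon stimulated genes with a promoter in the table, 19 (61.3%) held the element, against 3.46% of all 27025 genes and 1 of the 18 red cell genes.

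The interferon median relative to the DF mean was 0.33 and 0.62 in TFD, 1.32, 0.69 and 1.93 in TF and 0.31, 0.61 and 0.74 in WT. Both TFD values lay above the DF libraries, which stood at 0.03, -0.06 and -0.02, within the WT range and below all 3 TF libraries.

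Antigen presentation genes stood higher in TFD than in DF in most members. MHC class II molecules load peptides with the help of the invariant chain and the H2-DM exchange factors, under the control of Ciita. Of 13 such genes, 11 lay above all DF libraries and 0 below (14.1% and 15.0% of all genes), all 13 had a positive log2 fold change, and the median was 0.83 (0.99 without TFD replicate 1 and 0.68 without TFD replicate 2). DESeq2 called 1, H2-DMb1 (1.27% of all genes were called higher). Cd74, the invariant chain, had 517, 333 and 132 CPM in DF and 712 and 1250.2 CPM in TFD (log2 1.58, SE 0.49, edgeR adjusted p = 0.195). The chain genes H2-Aa and H2-Ab1 encode the I-A molecule, and H2-Aa had 336, 251 and 87.9 CPM in DF and 465 and 628 CPM in TFD. H2-Ab1 had 220.4, 134 and 49.6 CPM in DF and 293 and 419.5 CPM in TFD. The DF libraries spread widely in these 3 genes, with replicate 3 lowest. H2-DMb1 had 57, 40.4 and 29.6 CPM in DF and 66.8 and 84.1 CPM in TFD (DESeq2 adjusted p = 0.0311, 0.787 with log2 0.69 without TFD replicate 2), and H2-DMb2 had 4.52, 3.22 and 3.17 CPM in DF and 5.69 and 8.82 CPM in TFD.

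Of 21 dendritic cell genes, 9 lay above all DF libraries, 0 below (14.1% and 15.0% of all genes) and 12 overlapped. DESeq2 called 3 higher, Clec10a, Zbtb46 and Flt3 (1.27% of all genes), and 0 without TFD replicate 2. The median was 1.03. It was 1.36 without TFD replicate 1 and 0.31 without TFD replicate 2, which was the higher TFD library. Clec10a, a lectin of conventional dendritic cells and macrophages, had 36.4, 23.6 and 13.2 CPM in DF and 72.5 and 85.8 CPM in TFD, 3.23-fold higher (log2 1.69, SE 0.33, edgeR adjusted p = 0.0993, DESeq2 adjusted p = 0.0125). WT libraries stood at 8.38, 9.28 and 8.6 CPM, below every DF library. Zbtb46, a transcription factor of conventional dendritic cells, had 1.98, 2.19 and 1.19 CPM in DF and 3.19 and 7.13 CPM in TFD (DESeq2 adjusted p = 0.042). Clec9a, a receptor for dead cells on cross-presenting dendritic cells, had 9.05, 7.21 and 5.34 CPM in DF and 14 and 31.7 CPM in TFD (DESeq2 adjusted p = 0.0547). Itgax (CD11c) had 12.1, 9.72 and 11.7 CPM in DF and 19.6 and 28.6 CPM in TFD (DESeq2 adjusted p = 0.0572). In each of these 4 genes TFD replicate 2 was the highest of the 5 libraries. Siglech, a plasmacytoid marker, had 1.35, 0.0644 and 0.099 CPM in DF and 0.5 and 5.26 CPM in TFD, with WT at 35.5, 42.2 and 42.3. Only TFD replicate 2 exceeded the DF range. Tcf4, which specifies plasmacytoid dendritic cells, had 53.8, 53 and 53.7 CPM in DF and 65 and 99.6 CPM in TFD. Irf4, a factor of dendritic and B cells, had 46.3, 36.8 and 33.4 CPM in DF and 61.7 and 101 CPM in TFD (log2 1.07, SE 0.27, DESeq2 adjusted p = 0.009, 0.797 with log2 0.70 without TFD replicate 2).

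Tissue macrophage genes stood higher in TFD than in DF in 9 members. Of 16 tested, 9 lay above all DF libraries and 1 below (14.1% and 15.0% of all genes), with a median of 0.75 (0.52 without TFD replicate 1 and 0.73 without TFD replicate 2). DESeq2 called 3 higher, against 1.27% of all genes, and none without TFD replicate 2. Siglec1, a sialic acid receptor of marrow macrophages that interferon also induces, had 2.3, 1.67 and 2.28 CPM in DF and 6.5 and 6.77 CPM in TFD (log2 1.68, SE 0.53, DESeq2 adjusted p = 0.032). Mrc1, the mannose receptor, had 90.8, 73.8 and 48.1 CPM in DF and 129 and 322 CPM in TFD (DESeq2 adjusted p = 0.0293). Cd163, the receptor for hemoglobin and haptoglobin, had 4.05, 2.57 and 1.39 CPM in DF and 4.19 and 11.2 CPM in TFD (DESeq2 adjusted p = 0.0496). In Mrc1 and Cd163, TFD replicate 2 was more than 2 times TFD replicate 1. The complement genes C1qa and C1qb are markers of resident macrophages. C1qa was at 2.54, 3.8 and 3.56 CPM in DF and 8.01 and 5.61 CPM in TFD, and C1qb at 4.68, 5.34 and 5.84 CPM in DF and 10.8 and 7.4 CPM in TFD. Cd5l, a secreted macrophage protein, was at 0.238, 0.257 and 0.396 CPM in DF and 2.5 and 1.43 CPM in TFD. These 3 low genes lay above the DF range without passing either test.

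**Figure D4:**
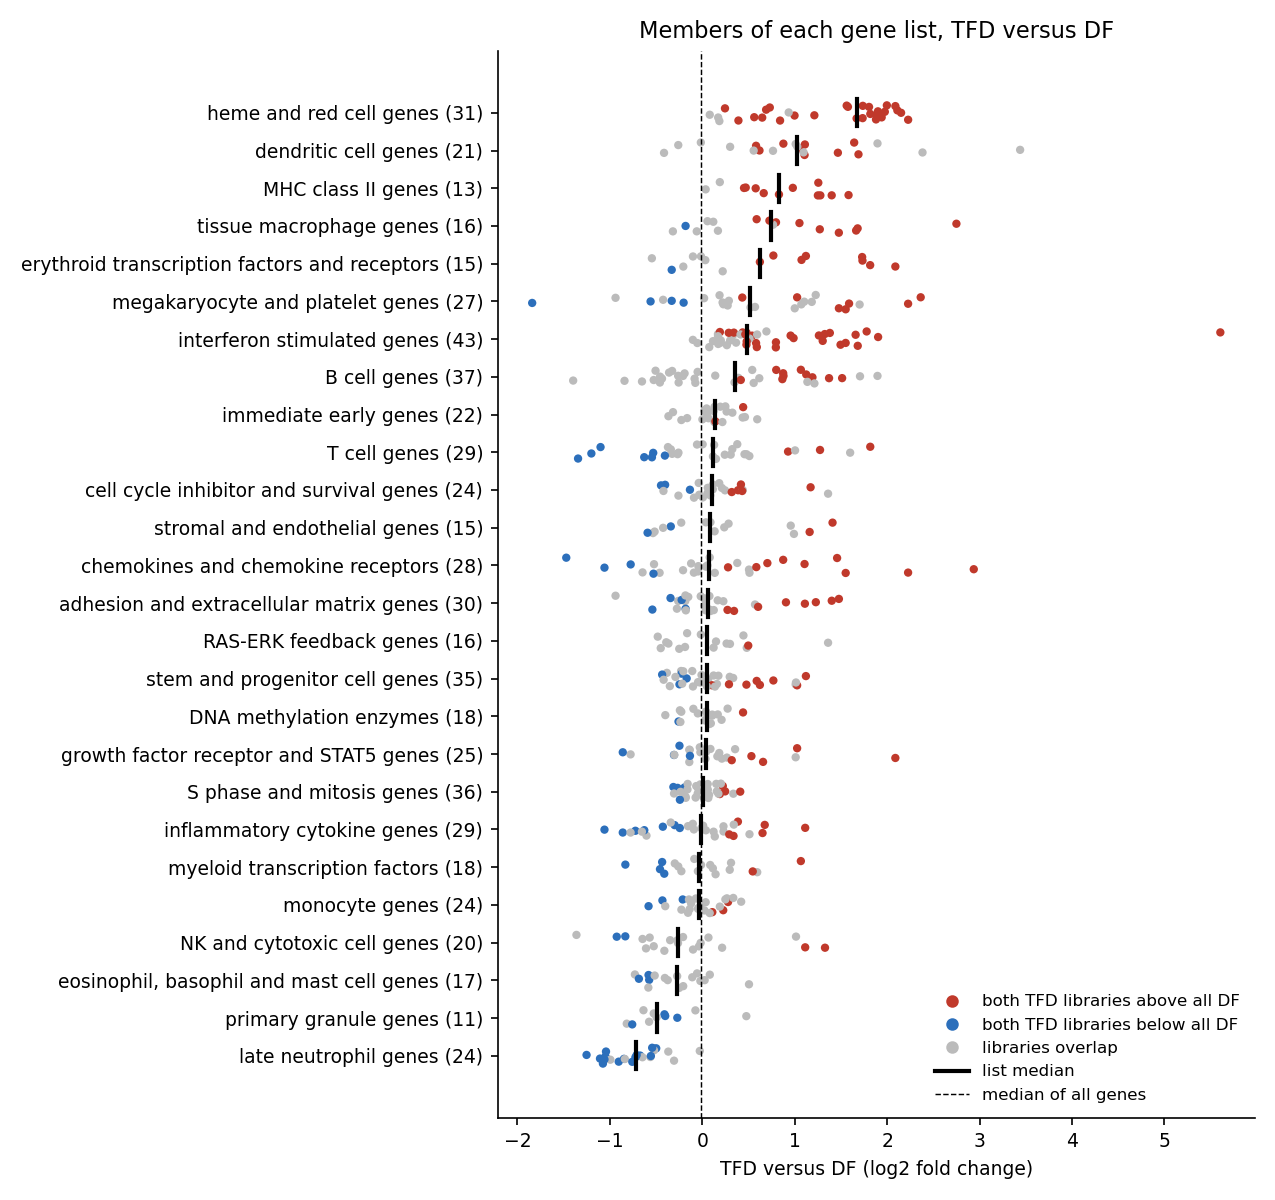
Log2 fold change of TFD versus DF for each tested member of each gene list, ordered by list median (black bars); the number tested stands in brackets, and the dashed line marks the median of all genes. Red points have both TFD libraries above all 3 DF libraries and blue points have both below. With both TFD libraries, the heme and red cell list has the highest median drawn, 1.67, and the late neutrophil list the lowest, -0.72.

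B cell genes were far below WT in both genotypes. Of 37 tested, 10 lay above the DF libraries, against 14.1% of all genes, and 0 below, the median was 0.35 (0.24 without TFD replicate 1 and 0.06 without TFD replicate 2), and DESeq2 called 1, Irf4 (1.27% of all genes were called higher). Relative to the DF mean the list median was 0.02 and 0.21 in TFD against 4.29, 4.39 and 4.2 in WT. Cd79a, a chain of the B cell receptor complex, had 1.35, 0.643 and 0.495 CPM in DF and 1.25 and 1.34 CPM in TFD, with WT at 41.2, 56.6 and 53.9 CPM. The groups overlapped. Bach2, a factor of B cells and of lymphoid-primed progenitors, was at 9.76, 5.34 and 4.26 CPM in DF and 10.9 and 26.7 CPM in TFD. Il7r, the interleukin 7 receptor, was at 2.46, 2.32 and 1.68 CPM in DF and 4.38 and 7.13 CPM in TFD. Jchain, the joining chain of plasma cell antibodies, was at 153, 167 and 195 CPM in DF and 369 and 256 CPM in TFD. These 3 lay above the DF range without passing either test.

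Of 29 T cell genes, 3 lay above and 7 below the DF libraries (14.1% and 15.0% of all genes), DESeq2 called none, and the median was 0.12 (-0.23 without TFD replicate 1 and 0.17 without TFD replicate 2). Cd3e and Cd3d, chains of the T cell receptor complex, overlapped, with Cd3e at 1.19, 1.16 and 1.68 CPM in DF and 2.06 and 1.6 CPM in TFD. Cd3d was at 2.46, 2.77 and 5.74 CPM in DF and 2.5 and 3.21 CPM in TFD. A further chain, Cd3g, named here after its values were seen, lay below the DF range (log2 -0.63). The killer T cell coreceptor Cd8a was at 3.41, 3.35 and 6.83 CPM in DF and 2.75 and 0.98 CPM in TFD, and its partner Cd8b1 at 2.06, 1.22 and 1.68 CPM in DF and 0.938 and 0.267 CPM in TFD. Both chains lay below the DF range. Cd27, a costimulatory receptor, was at 11, 10.3 and 10.3 CPM in DF and 8.32 and 7.58 CPM in TFD. Cd7, which plasmacytoid dendritic cells also carry, was at 2.46, 3.09 and 4.36 CPM in DF and 4.94 and 18.5 CPM in TFD and lay above the DF range. Of 20 NK and cytotoxic genes, 2 lay above and 2 below (14.1% and 15.0% of all genes). In this list 15 genes had a negative log2 fold change, and the median was -0.27 (-0.27 without TFD replicate 1 and -0.18 without TFD replicate 2). The receptors Ncr1, Klrb1c and Klre1 did not exceed 4.65 CPM in any of the 5 libraries. Gzmb (granzyme B) was at 4.37, 3.99 and 6.33 CPM in DF and 3.56 and 1.78 CPM in TFD. DESeq2 called 1 gene of the list, Il12rb2, a chain of the interleukin 12 receptor (1.27% of all genes were called higher). It stood at 5.64, 5.15 and 9.3 CPM in DF and 13.9 and 14.7 CPM in TFD (log2 1.11, SE 0.27, DESeq2 adjusted p = 0.0171). Without TFD replicate 2 its log2 fold change was 1.11.

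Stem and progenitor cell genes had a median of 0.05 (0.09 without TFD replicate 1 and 0.07 without TFD replicate 2) over 35 genes, with 8 above and 4 below the DF libraries (14.1% and 15.0% of all genes). Kit, the stem cell factor receptor, was at 84.2, 87.5 and 102 CPM in DF and 75.2 and 78.7 CPM in TFD. Cd34 was at 158, 142 and 140.1 CPM in DF and 136 and 125 CPM in TFD. Both lay below the DF range by narrow margins and did not pass either test. Flt3 was the 1 gene of the list that DESeq2 called, beside 1.27% of all genes called higher.

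The 25 growth factor receptor and STAT5 genes had a median of 0.04 (0.15 without TFD replicate 1 and 0.02 without TFD replicate 2), and DESeq2 called Flt3 and Epor higher and Osm lower (1.27% and 0.846% of all genes). Socs2 and Cish encode feedback inhibitors that STAT5 induces. Socs2 was at 23.3, 21.6 and 20.2 CPM in DF and 26.1 and 36.9 CPM in TFD (log2 0.53, SE 0.17, edgeR adjusted p = 0.2), with WT at 2.22, 2.23 and 3.31 CPM. Cish was at 8.26, 6.24 and 5.05 CPM in DF and 8.69 and 12 CPM in TFD (log2 0.66, SE 0.23). Both lay above the DF range, and TFD replicate 2 was the higher TFD library. Csf2ra, a chain of the GM-CSF receptor, overlapped at 224, 189 and 216 CPM in DF and 216 and 166 CPM in TFD. Of 16 RAS-ERK feedback genes, 1 lay above and 0 below the DF libraries (14.1% and 15.0% of all genes), with a median of 0.05 (0.11 without TFD replicate 1 and -0.04 without TFD replicate 2). That gene, the phosphatase Dusp5, was at 13.3, 9.2 and 12.3 CPM in DF and 14.6 and 18.1 CPM in TFD. Dusp4 did not exceed 0.535 CPM in these 5 libraries.

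The 18 DNA methylation genes tested had a median of 0.05 (-0.01 without TFD replicate 1 and 0.06 without TFD replicate 2) and log2 fold changes between -0.40 and 0.44, with 1 above the DF libraries (Dnmt3a), 1 below (Idh1), against 14.1% and 15.0% of all genes, and none called. Idh1, whose product feeds the TET enzymes with their cosubstrate, was at 233, 244 and 244 CPM in DF and 206 and 196 CPM in TFD (log2 -0.26, SE 0.12, edgeR adjusted p = 0.366).

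The 36 S phase and mitosis genes had a median of 0.01 (0.06 without TFD replicate 1 and 0.01 without TFD replicate 2), with 4 above and 4 below the DF libraries (14.1% and 15.0% of all genes), and DESeq2 called none. The proliferation marker Mki67 was at 2032, 2642 and 2804 CPM in DF and 2142 and 2261 CPM in TFD. Top2a, the topoisomerase of dividing cells, was at 1040.5, 1266 and 1152 CPM in DF and 1009.7 and 1289 CPM in TFD. Both overlapped. The replication clamp Pcna was at 286, 298 and 301 CPM in DF and 233 and 242 CPM in TFD (log2 -0.31, SE 0.11, edgeR adjusted p = 0.248). The mitotic kinase Cdk1 was at 125, 142 and 121 CPM in DF and 109.8 and 105 CPM in TFD, and the cyclin Ccne2 at 86, 90.7 and 91.7 CPM in DF and 74.2 and 77 CPM in TFD. Pcna, Cdk1 and Ccne2 lay below the DF range, whereas Birc5 (survivin) lay above it, at 66, 65.5 and 55.7 CPM in DF and 71.2 and 77.2 CPM in TFD.

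The 24 cell cycle inhibitor and survival genes had a median of 0.10 (0.22 without TFD replicate 1 and 0.06 without TFD replicate 2). Of these, 5 lay above and 3 below the DF libraries (14.1% and 15.0% of all genes). DESeq2 called 1, Cdkn2d (p19INK4d), lower, beside 0.846% of all genes. Cdkn2d was at 76.1, 70.0 and 73.2 CPM in DF and 53.5 and 53.7 CPM in TFD (log2 -0.45, SE 0.11, DESeq2 adjusted p = 0.0296). Without TFD replicate 2 its log2 fold change was -0.42. The survival gene Bcl2 was at 64.7, 66.7 and 65.5 CPM in DF and 75.4 and 96.5 CPM in TFD. Trp53, the p53 tumor suppressor, was at 29.1, 23.3 and 23.9 CPM in DF and 32.1 and 36.5 CPM in TFD. The death inducer Pmaip1 (Noxa) was at 38.7, 37.6 and 49.8 CPM in DF and 62.2 and 127 CPM in TFD. All 3 lay above the DF range without passing either test. The inhibitors Cdkn1a (p21) and Cdkn1b (p27) overlapped, with Cdkn1a at 15, 9.91 and 11.8 CPM in DF and 13 and 16 CPM in TFD. Cdkn1b was at 73.1, 71.8 and 87.8 CPM in DF and 82.7 and 85.1 CPM in TFD.

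Of 29 inflammatory cytokine genes tested, 6 lay above and 7 below the DF libraries (14.1% and 15.0% of all genes), with a median of -0.01 (-0.08 without TFD replicate 1 and 0.02 without TFD replicate 2). DESeq2 called Cxcl2 and Osm lower and Il12rb2 higher (0.846% and 1.27% of all genes). Osm, the interleukin 6 family cytokine oncostatin M, had 258, 188 and 306 CPM in DF and 152 and 123 CPM in TFD (log2 -0.86, SE 0.22, DESeq2 adjusted p = 0.0182, 0.562 with log2 -0.69 without TFD replicate 2). Il1r2, the decoy receptor for interleukin 1, had 54.9, 64.3 and 91.8 CPM in DF and 44 and 41 CPM in TFD. Il1b was at 117, 95.8 and 171 CPM in DF and 136 and 93.5 CPM in TFD and its antagonist Il1rn at 23.6, 26.3 and 50.2 CPM in DF and 27.7 and 15.6 CPM in TFD, both with overlap.

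Of 28 chemokine and chemokine receptor genes, 9 lay above and 4 below the DF libraries (14.1% and 15.0% of all genes), with a median of 0.07 (0.06 without TFD replicate 1 and 0.15 without TFD replicate 2). DESeq2 called Ppbp, Pf4 and Ackr1 higher and Cxcl2 and Ccr1 lower (1.27% and 0.846% of all genes). Ackr1, the chemokine-binding Duffy antigen of red cells, was at 0.238, 0.193 and 0.297 CPM in DF and 2.13 and 1.6 CPM in TFD (DESeq2 adjusted p = 0.00918). Ccr1, a receptor of neutrophils and monocytes, was at 264, 296 and 322 CPM in DF and 217 and 126 CPM in TFD (log2 -0.77, SE 0.20, DESeq2 adjusted p = 0.0195). Cxcr4, which retains cells in the marrow, was at 301, 296 and 370.1 CPM in DF and 345 and 325 CPM in TFD, and its ligand Cxcl12 at 15.2, 14.2 and 36.7 CPM in DF and 34.5 and 9.8 CPM in TFD, both with overlap. Of 30 adhesion and matrix genes, 8 lay above and 4 below (14.1% and 15.0% of all genes), with a median of 0.06 (0.0012 without TFD replicate 1 and 0.08 without TFD replicate 2). DESeq2 called Cd36 and Vwf higher (1.27% of all genes). Cd36, a fatty acid and thrombospondin receptor of red cell precursors, platelets and macrophages, was at 3.49, 3.48 and 7.62 CPM in DF and 13.6 and 11.5 CPM in TFD (log2 1.40, SE 0.38, DESeq2 adjusted p = 0.0202). Itgam (CD11b) was at 922, 985 and 1280.3 CPM in DF and 809 and 652 CPM in TFD, and Itga1 overlapped at 149.5, 158 and 194 CPM in DF and 152 and 149 CPM in TFD.

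Eosinophil, basophil and mast cell genes had 3 of 17 below (15.0% of all genes were) and 0 above the DF libraries, with a median of -0.27 (-0.58 without TFD replicate 1 and -0.15 without TFD replicate 2) and none called by DESeq2. Hdc, which makes histamine in basophils and mast cells, was at 178, 196 and 213 CPM in DF and 138 and 124 CPM in TFD. Siglecf, a receptor of eosinophils, was at 15.8, 15.1 and 15.7 CPM in DF and 11.3 and 7.84 CPM in TFD, and their granule gene Prg3 at 12.9, 15.2 and 12.9 CPM in DF and 9.01 and 9.36 CPM in TFD. These were the 3 below the DF range, whereas the granule gene Epx, at 34.9, 43.2 and 35.1 CPM in DF and 23.7 and 49.5 CPM in TFD, overlapped. Prg2 overlapped too, at 195, 282 and 257 CPM in DF and 149 and 263 CPM in TFD.

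Immediate early genes, which respond within minutes to handling of cells, had a median of 0.13 (0.17 without TFD replicate 1 and 0.05 without TFD replicate 2) over 22 genes. Of these, 2 lay above and 0 below the DF libraries (14.1% and 15.0% of all genes). Fos was at 1713, 1249.6 and 2028 CPM in DF and 1582 and 1387 CPM in TFD, with overlap. Fosb was at 323, 245 and 309 CPM in DF and 359 and 436 CPM in TFD, and Zfp36 at 403, 313 and 411 CPM in DF and 416 and 413 CPM in TFD, both above the DF range. Stromal and endothelial genes, which mark cells outside the blood lineages, summed over 15 genes to 128, 139 and 191 CPM in DF and 168 and 122 in TFD. The collagen gene Col1a1 was at 8.57, 8.11 and 8.21 CPM in DF and 6.75 and 6.33 CPM in TFD, and Col1a2 at 7.7, 9.4 and 11.1 CPM in DF and 8.88 and 7.04 CPM in TFD. Kitl (stem cell factor) was at 1.43, 1.54 and 1.78 CPM in DF and 4.25 and 2.76 CPM in TFD. Spp1 (osteopontin) was at 27.8, 33 and 41.1 CPM in DF and 25 and 19.8 CPM in TFD, and the endothelial cadherin gene Cdh5 at 0.238, 0.386 and 0.792 CPM in DF and 0.813 and 1.69 CPM in TFD. Col1a1 and Spp1 were the 2 of 15 below the DF range, and Kitl and Cdh5 the 2 above it (15.0% and 14.1% of all genes). The list median was 0.09 (-0.41 without TFD replicate 1 and 0.49 without TFD replicate 2), so its direction differed between the TFD libraries. DESeq2 called none of the 15.

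The genes with the largest differences included several outside these lists. Among the 12 highest by the naming rule, apart from those above, St8sia1, a ganglioside sialyltransferase, stood at 1.43, 1.16 and 1.09 CPM in DF and 3.94 and 18.6 CPM in TFD (log2 3.16, SE 0.60, DESeq2 adjusted p = 4.21e-05, 0.185 with log2 1.71 without TFD replicate 2). The X-linked gene Pdzd4 stood at 3.41, 1.54 and 0.792 CPM in DF and 4.94 and 14.5 CPM in TFD (DESeq2 adjusted p = 0.00103). Its log2 fold change was 2.29, and 1.37 without TFD replicate 2. The cell adhesion gene Cadm3 stood at 1.03, 0.708 and 0.396 CPM in DF and 4.25 and 5.53 CPM in TFD (DESeq2 adjusted p = 0.00251). In St8sia1 and Pdzd4, TFD replicate 2 was more than 2 times TFD replicate 1. The apolipoprotein L genes Apol8 and Apol11b both lie on chromosome 15. Apol8 was at 0.635, 1.03 and 0.99 CPM in DF and 5.5 and 4.46 CPM in TFD (log2 2.48, SE 0.48, DESeq2 adjusted p = 2.20e-04). Apol11b was at 3.97, 9.14 and 7.13 CPM in DF and 42.3 and 19.6 CPM in TFD (log2 2.20, SE 0.44, DESeq2 adjusted p = 0.0115). Since only unique alignments were counted, reads shared between such related copies may be missing from both. Btnl10, a butyrophilin-like gene, was at 0.556, 1.22 and 1.58 CPM in DF and 6.25 and 4.19 CPM in TFD (DESeq2 adjusted p = 0.00139).

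Among the 12 lowest, Pnpla1, an acyltransferase of the patatin family, stood at 3.33, 3.67 and 3.37 CPM in DF and 0.938 and 0.356 CPM in TFD (log2 -2.33, SE 0.62, DESeq2 adjusted p = 0.0133). Gpld1, which cleaves glycosylphosphatidylinositol anchors, was at 3.41, 2.83 and 2.57 CPM in DF and 1.06 and 0.535 CPM in TFD, and Ggt1, a gamma-glutamyltransferase of glutathione use, at 3.02, 4.83 and 2.97 CPM in DF and 1.13 and 0.98 CPM in TFD. Upp1, the uridine phosphorylase, was at 9.13, 12 and 5.64 CPM in DF and 2.69 and 3.39 CPM in TFD (DESeq2 adjusted p = 0.00495). P2ry13, an ADP receptor on chromosome 3 like P2ry12, was at 15, 21.6 and 22.6 CPM in DF and 9.94 and 6.77 CPM in TFD (log2 -1.22, SE 0.23, DESeq2 adjusted p = 0.00135). Irg1, which makes itaconate in activated myeloid cells, was at 29.1, 30.2 and 32.6 CPM in DF and 11.6 and 15.7 CPM in TFD (DESeq2 adjusted p = 0.0037). Of the remaining 3, Tmem45a2 was at 5.95, 4.05 and 9.21 CPM in DF and 2.19 and 1.34 CPM in TFD and Gpr137c at 8.81, 10.6 and 18.3 CPM in DF and 5.94 and 4.28 CPM in TFD. The adhesion receptor gene Adgrg7 was at 30.3, 20.7 and 25.8 CPM in DF and 10.8 and 11.8 CPM in TFD. Gene models without an established name, of the Gm and Rik kinds, were counted but are not named.

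DESeq2 called 9 genes both with all libraries and in each of the 5 fits that left out one DF or TFD library. Among them, Apol8, Btnl10, Dmtn and Vwf were higher in TFD, and Ifitm6, Hp, Plscr1 and Slc28a2 were lower. Hp, Plscr1 and Slc28a2 fall outside the naming rule and were named after their values were seen. Ifitm6, an interferon-induced transmembrane family gene of myeloid cells, had 421, 508 and 459.9 CPM in DF and 257 and 137 CPM in TFD (log2 -1.23, SE 0.23, edgeR adjusted p = 0.0993, DESeq2 adjusted p = 1.23e-04). Hp (haptoglobin), a hemoglobin-binding protein that granulocytes also make, had 843, 807 and 759.5 CPM in DF and 535 and 402 CPM in TFD, 1.71-fold lower (DESeq2 adjusted p = 1.54e-04). Plscr1, an interferon-responsive phospholipid scramblase, had 54.9, 50.8 and 63.4 CPM in DF and 31.8 and 28.3 CPM in TFD (log2 -0.90, SE 0.13, DESeq2 adjusted p = 5.65e-05), and Slc28a2, a nucleoside transporter, had 67.1, 89.6 and 98.9 CPM in DF and 36.7 and 43.8 CPM in TFD (log2 -1.08, SE 0.19). The smallest p of the edgeR test, also seen only afterwards, belonged to the metalloprotease gene Mmel1, with 2, 3 and 2 reads in DF and 41 and 31 in TFD (edgeR adjusted p = 0.0829). In TF and WT it did not exceed 0.573 CPM.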

How the data were processed

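Gene counts per library were deposited as a table of raw read counts, which the authors made with STAR on mm10, unique alignments and featureCounts on refGene. Versions and the strand setting are not given in the sources used here. The same table holds an exon length per gene, in another unit (bases), as deposited. Libraries were made from globin-depleted total RNA with the TruSeq Stranded kit. Of 12199 genes, 12175 passed the stated filter (CPM above 0.5 in more than 3 of 11 libraries), and 24 were left out. Genotypes were taken from the labels. The main test was edgeR 4.0.16 quasi-likelihood (R 4.3.3) with TMM factors, all 4 genotypes in one fit and the contrast TFD minus DF, with Benjamini-Hochberg adjustment at 0.05. DESeq2 1.42.0, the test the study states, and limma 3.58.1 were alternatives. SE is the absolute log2 fold change over the square root of F. Scripts were tested on simulated data. Totals of 10937204 to 15900904 reads per DF or TFD library set the counting precision.

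Named genes were the targeted genes, the 12 highest and the 12 lowest DESeq2 calls without overlap whose mean log2 CPM reached 1, 2 to 6 members of each list by order and by edgeR p, and the sex-linked genes. A few members of these sets are counted but not reported here singly. Members and lists were chosen with earlier results of these data known. Alternatives were the tests above, other scaling, no filter, fewer libraries, a replicate block, an Xist term (libraries with at least 10000 Xist reads) and a 2-fold minimum, and the DESeq2 alternatives were added after seeing the data. Promoter sequences come from RefSeq, GRCm38.p6. Figures were drawn with Python 3.11.15 and matplotlib 3.10.9. TFD replicate 3 was not analysed here.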

Additional observations from a re-analysis of the deposited data

How the results depend on the processing

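The quasi-likelihood test of edgeR called 0 genes with TMM factors, library totals, DESeq2 size factors (RLE), no filter on low counts, a term for Xist-rich libraries or a 2-fold minimum, and limma voom called 0. It called 135 genes (109 higher) with DF and TFD libraries alone and 42 (34 higher) with the replicate number as a replicate block. The likelihood ratio test of edgeR called 311 and DESeq2 258, and the edgeR fit with the legacy setting off, added after seeing the data, called 1. The planned legacy setting is the default of the installed version. Leaving out one library gave 0 to 384 edgeR calls. The DESeq2 count of 258 became 124 with the Xist term and 136 with a 2-fold minimum, and 42 to 920 with one library left out. It was 257 without the filter, 286 with DF and TFD alone and 324 with the replicate block. The numbers are shared between groups only by title. Deviations from the group means correlated at -0.056 for number 1 and 0.035 for number 2, which gives no sign of pairing. Median log2 fold change over all genes was -0.011 with TMM factors and 0.083 with library totals.

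Of the 156 named genes, 21 changed sign under some alternative, and none of the 57 that DESeq2 called did. In the edgeR fits with another setting, the log2 fold change that turned was, with library totals, 0.0769 for Cebpa, 0.0187 for Mpo, 0.0302 for Epx, 0.0868 for Top2a and 0.0085 for Ddx3x. With RLE factors it was 0.0152 for Cebpa and 0.0239 for Top2a, and with DESeq2 0.0148 for Cebpa and 0.0238 for Top2a. With DF and TFD libraries alone it was 0.0079 for Top2a, and with the replicate block 0.12 for Col1a2 and 0.0113 for Ddx3x. With the Xist term it was 0.0396 for Cd34, 0.0917 for Mpo, 0.12 for Fcnb, 0.0376 for Itga1, -3.16 for Xist, -0.18 for Eif2s3x and -0.0926 for Kdm6a. With one library left out, values ranged as follows: Cebpa -0.0778 to 0.12, Mpo -0.42 to 0.23, Epx -0.64 to 0.39, Prg2 -0.69 to 0.10, Itga2b -0.34 to 1.14, Cd3d -0.54 to 0.14, Il1b -0.45 to 0.14, Csf2ra -0.34 to 0.0734, Top2a -0.16 to 0.16, Cxcr4 -0.0028 to 0.20, Cxcl12 -1.15 to 0.69, Fos -0.33 to 0.033, Xist -3.63 to 9.60, Ddx3x -0.22 to 0.0821, Eif2s3x -0.16 to 0.65, Kdm6a -0.0078 to 0.68 and Ptprc -0.24 to 0.0205. Causes were not tested. Of 405 settings of list medians, 8 moved by more than the median SE of the list's members, each with 1 TFD library left out. They belong to the primary granule, late neutrophil, dendritic cell, heme and red cell, and megakaryocyte lists.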
